A study of Drosophila melanogaster with 4 samples.

Results

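The regions described here are the stretches of arm 3R of the Drosophila melanogaster genome that were listed as enriched in H3K9me1. This mark is histone H3 with a single methyl group on lysine 9. The embryos were wild-type Oregon-R, 14 to 16 h old. The regions were taken by position alone. Each is a cluster, a stretch listed as significantly enriched, of the list deposited for the replicate set (called the combined list here) that starts between bases 2000001 and 26905053 of 3R on FlyBase release 5. This interval leaves out the 2 Mb next to the centromere and the terminal 1 Mb, and it spans 24.9 Mb. It held 2007 of the 13114 combined clusters, together with 720 of the 5480 clusters of ChIP replicate 1 and 784 of the 6062 of replicate 2. A further 331 combined clusters of 3R started outside the interval.

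The study has 4 samples of whole embryos of this strain: 2 chromatin immunoprecipitations (ChIP) with a new lot of an antibody against H3K9me1, and 2 Input samples, chromatin sequenced without precipitation. The labels name each Input sample as the control of the ChIP list of the same number, and no Input values were analysed here. Nothing in the labels says that the replicates came from separate collections of embryos, and their spread may be a technical one. The depth of the libraries is unknown from these lists. An exact permutation test that flips signs over only 2 samples cannot reach less than p = 0.5 (two-sided), so values are given for each replicate with their spread and without a test.

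Methylation of lysine 9 of histone H3 is best known in flies from heterochromatin, the compact and repeat-rich chromatin around the centromeres. There the enzymes Su(var)3-9 and eggless add methyl groups, and the protein HP1a binds the more highly methylated forms. The form with a single methyl group is the first product of these reactions and is also found along the gene-rich arms. Arm 3R is the right arm of chromosome 3. It is euchromatic over most of its length and carries both Hox gene complexes of the fly, the Antennapedia complex and the bithorax complex. No annotation or genome of release 5 was used here, so no stretch below is assigned to a gene and no sequence is shown.

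H3K9me1 clusters covered a small part of the arm. They held 6.10% of the bases of the interval in replicate 1 and 6.92% in replicate 2 (mean 6.51% ± 0.58, SD, n = 2), and 17.5% in the combined list. This was less than on the matching interior of every other long arm, in both replicates. The interiors of 2L, 2R and 3L, cut in the same way and joined, were covered at 7.59% and 8.63%. The ratio of 3R to them was 0.804 in replicate 1 and 0.802 in replicate 2 (0.803 ± 0.0018, SD, n = 2). Against 2L, the next lowest arm, the ratio was 0.916 and 0.856, and the means differed by less than the SD on 2L (7.37% ± 1.00, n = 2). Coverage of the X interior was 15.1% and 18.1%, which put 3R at 0.404 and 0.383 of X.

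Against the other autosomal arms, 3R had fewer clusters per Mb, while widths and scores were alike to within the replicate spread. Replicate 1 had 28.9 clusters per Mb on 3R and replicate 2 had 31.5, while the means of the replicates were 33.6 on 2L, 36.3 on 3L and 40.8 on 2R. Only against 2L was this difference smaller than the SD between replicates there (33.6 ± 3.6). Median widths of 1798 bp and 1878 bp on 3R gave a mean of 1838 bp ± 57 (SD, n = 2), beside means of 1843 bp on 2L, 1857 bp on 2R and 1859 bp on 3L. The median scores were 0.70 and 0.67, a mean of 0.68 ± 0.02 (SD, n = 2), beside 0.69 on each of the other autosomal arms and 0.81 on X.

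The score is the authors' own value for a cluster, and its scale is not stated. Read as a log2 ratio, for the reasons given with the processing, the medians stand for ratios of 1.62-fold in replicate 1 and 1.59-fold in replicate 2. Scores spanned a narrow range. From the 5th to the 95th percentile they ran from 0.54 to 0.90 in replicate 1, from 0.50 to 0.86 in replicate 2 and from 0.36 to 0.68 in the combined list, whose median was 0.48. Of the 329 combined clusters that held exactly 1 cluster of each replicate, 269 (81.8%) had a score below both of them, with medians of 0.58 in the combined list, 0.71 in replicate 1 and 0.68 in replicate 2.

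Widths had a floor and a long upper tail. No replicate cluster of the interval was narrower than 1301 bp and no combined cluster narrower than 1001 bp. At that floor sat 49 combined clusters, and 525 (26.2%) were narrower than any replicate cluster. The middle 50% of the combined clusters lay between 1284 bp and 2506 bp. At least 5 kb was reached by 15 clusters in replicate 1, 29 in replicate 2 and 106 in the combined list. The widest 10% of the clusters held 21.0% of the clustered bases in replicate 1, 22.1% in replicate 2 and 25.5% in the combined list.

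Most combined clusters did not have a cluster of both replicates beneath them. Of the 2007, 405 (20.2%, 95% Wilson interval 18.5% to 22.0%, counting error only) shared at least 1 bp with a cluster of each replicate, against 23.8% of the whole combined list. Replicate 1 alone touched 253 (12.6%, against 12.0% of the whole list) and replicate 2 alone 331 (16.5%, against 17.1%). Neither replicate touched 1018 (50.7%, against 47.2%). On 3R the share touched by both was thus below that of the whole list, and the share touched by neither above it. Both replicates touched 21.4% on 2L, 21.5% on 2R, 22.5% on 3L and 29.1% on X. Neither touched 49.8%, 46.5%, 48.6% and 43.2% on these arms. The differences between arms were not tested. The combined list was deposited for the same replicates, so it is no independent evidence of the mark.

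Width separated the supported clusters from the others more sharply than score. Clusters touched by both replicates had a median width of 3401 bp and held 36.2% of the combined clustered bases. Those touched by replicate 1 only, replicate 2 only and neither had medians of 1919 bp, 2001 bp and 1318 bp. The combined clusters were split by width into 4 groups of near-equal size. In the narrowest group, from 1001 to 1283 bp, 0 of 502 were touched by both, and 463 (92.2%) by neither. In the widest group, from 2511 to 20846 bp, 302 of 502 (60.2%) were touched by both and 39 (7.77%) by neither. All clusters of the narrowest group were below the 1301 bp floor of the replicate lists. A wider cluster also has more bases with which to touch another, and the part of this in the result was not tested.

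**Figure D1:**
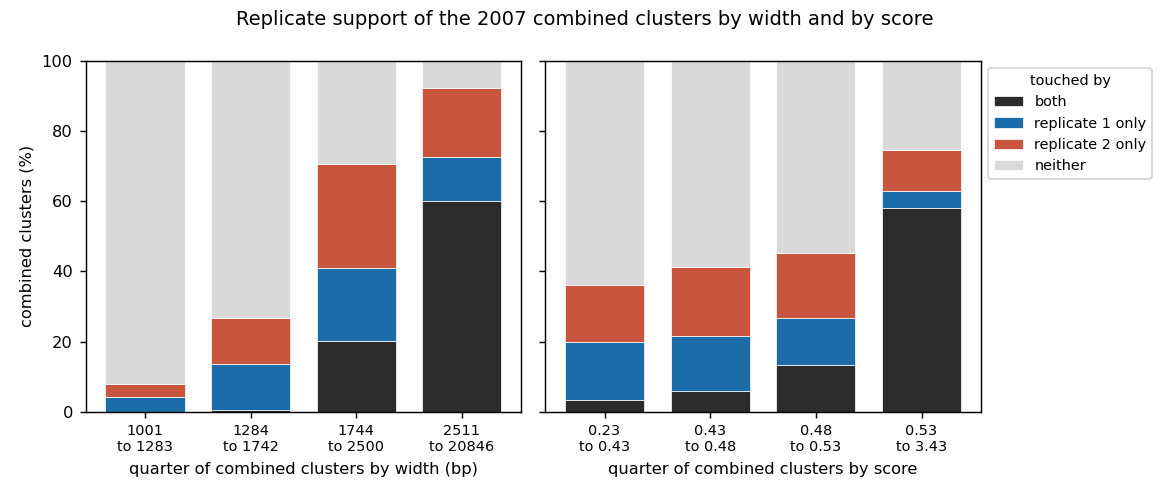
Share of the combined clusters of arm 3R (vertical axis, percent) touched by both replicates, by 1 of them or by neither, in 4 groups of near-equal size by width in bp (left) and by deposited score (right). The share touched by both is 0% in the narrowest group and 60.2% in the widest, and it goes from 3.39% in the lowest-scoring group to 58.2% in the highest.

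Among the wide clusters, those with higher scores were touched by both replicates more often. This group ran up to 20846 bp, so width was not held constant in it, and a separate part of score was not tested. Among the wider clusters (at least the median of 1742 bp), both replicates touched 359 of the 631 clusters with a score at or above the median of 0.48 (56.9%) and 44 of the 373 below it (11.8%). Among the narrower clusters both touched 1 of 373 and 1 of 630, while neither replicate touched 90.6% of the high-scoring and 78.3% of the low-scoring clusters. Median scores were 0.58 for clusters touched by both and 0.46 for those touched by neither. Among clusters of the middle 50% of the widths they were 0.52 (103 clusters) and 0.44 (516 clusters).

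**Figure D2:**
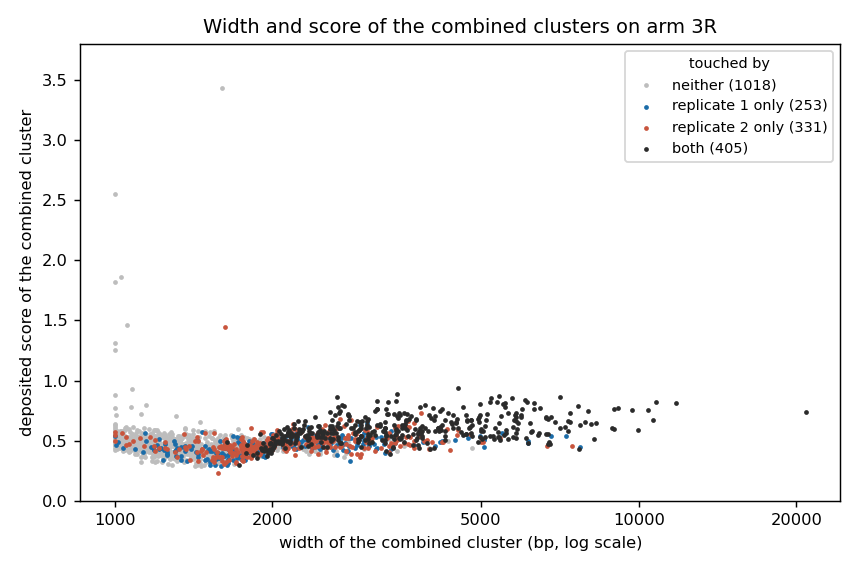
Width in bp (horizontal axis, log scale) and deposited score (vertical axis) of each of the 2007 combined clusters of arm 3R, coloured by the replicates that touch it. Clusters touched by both (405, dark) lie at widths of 1639 bp or more and at scores up to 0.94, while the scores above that belong to clusters of at most 1623 bp that neither replicate or replicate 2 alone touches.

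The replicates were then compared with each other. Of the 720 clusters of replicate 1, 435 (60.4%) touched a cluster of replicate 2, against 66.5% over the whole list. Of the 784 of replicate 2, 424 (54.1%) touched a cluster of replicate 1, against 57.6%. Both shares were below those of the whole list. Their mean was 57.2%, beside 57.1% on 2R, 60.4% on 3L, 60.8% on 2L and 67.1% on X. The 2 shares of an arm are the 2 directions of the same overlap, so they give no spread between replicates. Bases inside clusters of both replicates came to 0.855 Mb of the interval, or 3.43%. The Jaccard index (bases in both lists over bases in either) was 0.358 on 3R, beside 0.367 on 2R, 0.371 on 3L, 0.390 on 2L and 0.424 on X. The order of the arms was not tested, and lists that cover more of an arm also meet more often.

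Wide and high-scoring clusters recurred more often in the other replicate. With each list split into 4 groups of near-equal size, replicate 2 touched 38.3% of the narrowest and 88.3% of the widest group of replicate 1, and 52.8% of its lowest-scoring and 75.6% of its highest-scoring group. Replicate 2 showed the same order, with 28.9% and 82.1% by width and 45.4% and 70.9% by score. By score the rise was not steady. The second-lowest group recurred least, at 50.0% in replicate 1 and 42.5% in replicate 2, and the next reached 63.3% and 57.8%. Clusters with a neighbour of their own list within 5 kb recurred in 63.7% (replicate 1) and 59.4% (replicate 2) of cases, those without in 57.1% and 49.5%. Clusters with a neighbour were also the wider ones, at medians of 1838 bp against 1756 bp in replicate 1 and 1928 bp against 1842 bp in replicate 2.

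Clusters that did not recur lay at varied distances from the other replicate. The 285 untouched clusters of replicate 1 lay a median of 5639 bp from the nearest cluster of replicate 2, and 47.0% of them lay within 5 kb. The 360 untouched clusters of replicate 2 lay at a median of 9842 bp, with 32.2% within 5 kb. Beyond 50 kb there were 11 in replicate 1 and 39 in replicate 2. Their median scores were 0.68 and 0.64, against 0.72 and 0.69 for the clusters that were touched.

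Clusters of the replicates that overlapped one to one were compared at their edges. There were 369 pairs of clusters that overlapped one to one, 51.3% of replicate 1 and 47.1% of replicate 2. Starts differed by a median of 311 bp and ends by 258 bp, with 90th percentiles of 1157 bp and 1129 bp. Within 200 bp lay 36.9% of the starts and 40.4% of the ends. The paired clusters had median widths of 2017 bp in replicate 1 and 2074 bp in replicate 2. Pairs were picked by overlap, which itself limits these distances. Replicate 1 had the higher score in 223 pairs (60.4%), with a median difference of 0.03, and replicate 2 had the wider cluster in 213 (57.7%). Scores of the 369 pairs had a Pearson's r of 0.46 and a Spearman's rho of 0.44, and widths a rho of 0.50. These coefficients describe pairs that share the same 2 libraries, and the clusters are not replicates.

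The regions named next have coverage by both replicates over at least 50% of their length. On 3R 305 combined clusters did (15.2%, against 16.1% of the whole combined list), with a median width of 2952 bp and a median score of 0.60. The highest score among them was 0.94, a 1.92-fold ratio, at 3R from 2928983 to 2933505. Replicate 1 covered 84.1% of its 4523 bp with 1 cluster of score 0.94 and replicate 2 covered 84.6% with 1 cluster of score 1.05. Next, the region from 14982255 to 14985718 (3464 bp), had a score of 0.89 and clusters of 0.97 and 0.91 in replicates 1 and 2. It was followed by 4859721 to 4865138 (5418 bp, score 0.87), of which replicate 1 covered 90.8% and replicate 2 all bases. In each of these 3 the combined cluster corresponded to a single cluster of either replicate.

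The others of the 10 highest-scoring started at 25004001 (score 0.87), 2240771 (0.86), 12979087 (0.85), 9059046 (0.85), 21417729 (0.84), 23696505 (0.83) and 4633251 (0.83). Their widths ran from 2658 bp at 2240771 to 7084 bp at 25004001. The mean share covered by the replicates ran from 74.7% ± 7.9 at 25004001 to 94.5% ± 5.7 at 12979087 (SD, n = 2). The replicates differed most in score at 12979087, where the clusters had 0.75 in replicate 1 and 1.03 in replicate 2, and at 2240771, where they had 1.01 and 0.76. The 10 were spread along the arm and none was among the 10 longest.

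The longest supported region stood apart in length from the next, of 11757 bp. It ran from 25117423 to 25138268 (20846 bp) with a score of 0.74. Replicate 1 covered 75.9% of it with 3 clusters and replicate 2 71.5% with 2. The highest score of all clusters of replicate 1 in the interval, 1.13, lay inside it, while the highest there in replicate 2 was 0.74. Another 2 of the 10 longest lay within the 25 kb before it, from 25093955 to 25103666 (9712 bp, score 0.75, 85.7% ± 3.0 covered) and from 25104338 to 25113293 (8956 bp, score 0.76, 78.4% ± 18.3 covered).

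The other long regions were scattered along the arm. They ran from 13702380 to 13714136 (score 0.81, 80.9% ± 14.4 covered, SD, n = 2), 24698079 to 24708848 (10770 bp, score 0.82, 82.3% ± 5.8), 21244083 to 21254744 (10662 bp, score 0.67, 67.6% ± 4.8) and 3669182 to 3679590 (10409 bp, score 0.75, 81.9% ± 21.1). The last had 67.0% of its bases covered in replicate 1 by 3 clusters and 96.8% in replicate 2 by 1. Shorter were those that started at 17463654 (9148 bp, score 0.77), 17418906 (8985 bp, score 0.60) and 21457901 (8883 bp, score 0.61). Of the 10 longest, 9 held 2 or more clusters of a replicate. So did 76 of the 405 combined clusters touched by both replicates (18.8%), and 89 of all 2007 (4.43%).

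The highest scores of the combined list in the interval lay in clusters that were not touched by both replicates. Of the 8 combined clusters with a score above 0.94, the highest of any cluster touched by both, 7 were touched by neither replicate and were at most 1603 bp wide. The top 3 lay at 17126116 to 17127718 (1603 bp, score 3.43, a 10.8-fold ratio), 21153679 to 21154679 (1001 bp, score 2.56) and 26306194 to 26307221 (1028 bp, score 1.86). The other one, the first cluster of the interval (2001859 to 2003481, score 1.44), was touched by replicate 2 only. The combined cluster just outside the interval next to it (1998694 to 2000774) had a score of 0.52. At the other end the last cluster inside (26902714 to 26903857) had a score of 0.44 and the first outside (26921665 to 26923564) 0.43.

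Long combined clusters without support had low scores. The 3 longest touched by neither replicate ran from 9900747 to 9905547 (4801 bp, score 0.44), 11409835 to 11414155 (4321 bp, score 0.50) and 9017027 to 9021006 (3980 bp, score 0.44). In the replicates the highest scores without a partner were 3.67 at 3528545 to 3529955 (1411 bp) and 2.67 at 2001825 to 2003279 (1455 bp), both in replicate 2. Its next 3 such clusters, which started at 23328370, 23500641 and 3992501, had scores of 0.96, 0.92 and 0.89. In replicate 1 the highest was 1.02 at 17625479 to 17626959 (1481 bp). The next 4, which started at 17935078, 9627230, 3845844 and 20998560, had scores of 0.92, 0.91, 0.91 and 0.89. All 10 of these clusters overlapped 1 combined cluster, whose score there was lower in each case, for example 0.51 at 3528545.

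Clusters were unevenly spaced. The median gap from the end of a cluster to the start of the next was 11986 bp in replicate 1 and 14546 bp in replicate 2 (mean 13266 bp ± 1810, SD, n = 2), and 4621 bp in the combined list. The means of the gaps, 32333 bp, 29560 bp and 10237 bp, were more than 2 times the medians. The SD of the gaps was 1.49, 1.38 and 1.62 times their mean. Gaps under 5 kb made up 30.7% of those of replicate 1 and 27.6% of those of replicate 2, while 62 and 54 gaps reached 100 kb. Both replicates thus had many short and many long gaps.

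**Figure D3:**
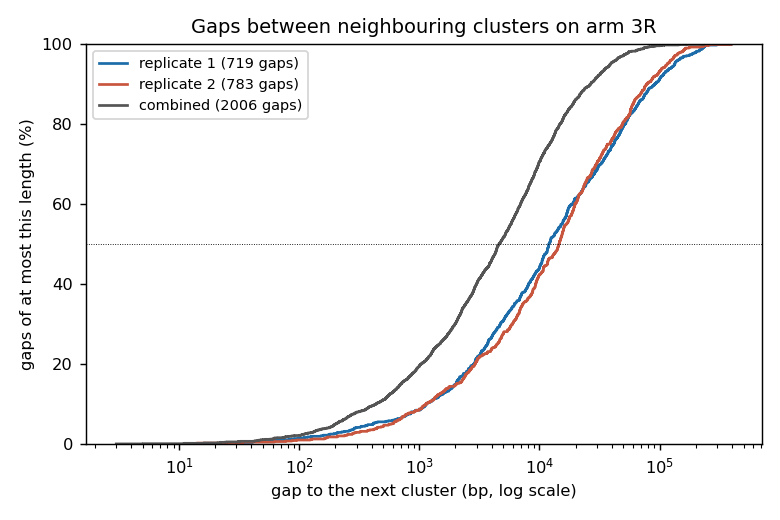
Cumulative share of the gaps between neighbouring clusters of arm 3R (vertical axis, percent) by gap length in bp (horizontal axis, log scale) in each of the 3 lists. The curves of the replicates run together and cross 50% at 11986 bp and 14546 bp, and the curve of the combined list crosses it at 4621 bp.

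Joined over gaps of at most 5 kb, clusters formed chains. In replicate 1, 50.8% of the clusters stood in a chain of 2 or more, and in replicate 2 46.2%, beside 66.9% and 69.5% on X and 47.8% to 56.4% on the other autosomal arms. Only 4 chains in replicate 1 and 5 in replicate 2 held 5 clusters or more. The longest chain was at the same place in both replicates. It had 12 clusters over 64.9 kb from 25072279 in replicate 1 and 10 clusters over 54.9 kb from 25080643 in replicate 2. In the combined list the longest chain, 13 clusters over 51.5 kb, started elsewhere, at 9796368.

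Some stretches held no cluster at all. The longest run without a cluster in either replicate spanned 395 kb from 12479505 to 12874190, and its edges in the replicates taken singly were close (12478315 to 12874190 in replicate 1, 12479505 to 12877840 in replicate 2). The combined list had 6 clusters in it, of at most 1391 bp, which covered 1.74% of the run. The next runs in both replicates were 232 kb from 17174592, 216 kb from 9071109, 215 kb from 21866901 and 215 kb from 19178782. Assembly gaps and repeats to which reads cannot be assigned also appear as runs without clusters, and their part was not tested.

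Runs free of clusters in all 3 lists were longest at 12582843 to 12818266 (235 kb) and 17174592 to 17406492 (232 kb). Then came 19204173 to 19370901 (167 kb), 2737996 to 2884993 (147 kb) and 26641369 to 26784313 (143 kb). There were 8 such runs of at least 100 kb on 3R, beside 7 on 3L, 4 on 2R, 3 on 2L and 1 on X, whose longest were 178, 134, 119 and 100.1 kb. These counts are over interiors of unlike length, from 18.1 Mb on 2R to 24.9 Mb on 3R. Runs of at least 50 kb numbered 2.33 per Mb on 3R, 2.60 on 2L, 1.76 on 3L, 1.60 on 2R and 0.463 on X. They made up 18.1% of the interval on 3R, 17.5% on 2L, 13.2% on 3L, 11.1% on 2R and 3.12% on X.

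The run from 17174592 ended abruptly. In the 100 kb after it clusters covered 28.8% of the bases in replicate 1 and 29.4% in replicate 2, and in the 100 kb before it 3.46% and 9.10%. Around the run from 12479505 the flanks were covered at 4.43% and 5.27% before it and at 3.50% and 6.02% after it, below the coverage of the interval in both replicates. The flanks of the run from 2737996 were covered at 3.68% and 3.26% before it and at 10.8% and 15.7% after it. The 100 kb after it held the highest-scoring supported region, at 2928983.

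Stretches below 1 Mb were compared in 100 bins, 99 of 250 kb and a last one of 155 kb at the telomere side of the interval. Coverage of a bin ranged from 0% to 26.2% in replicate 1 and from 0% to 30.1% in replicate 2, with medians of 5.35% and 6.07%. Across the bins Pearson's r between the replicates was 0.80 and Spearman's rho 0.74, beside r of 0.86 to 0.87 on the other autosomal arms and 0.89 on X. These coefficients describe bins of the same 2 libraries. Of the 100 bins, 77 lay on the same side of the coverage of the interval in both replicates.

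**Figure D4:**
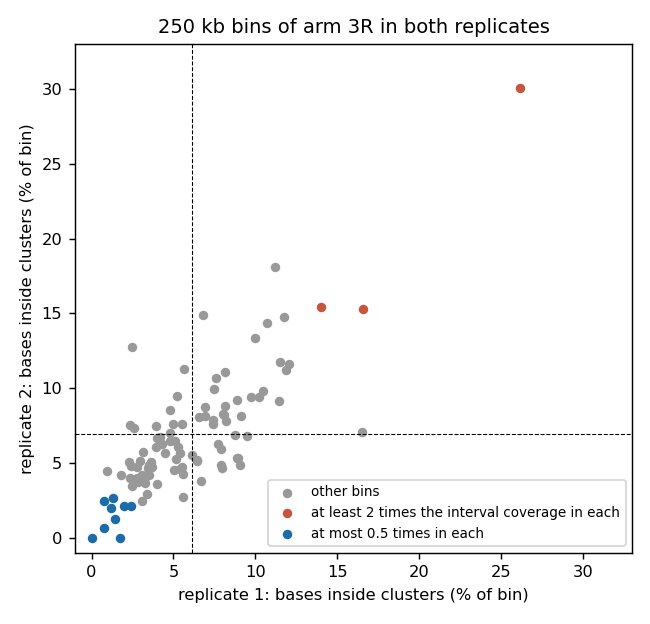
Share of each of the 100 bins of arm 3R (99 of 250 kb and 1 of 155 kb) that lies inside clusters (percent) in replicate 1 (horizontal axis) and replicate 2 (vertical axis), with dashed lines at the coverage of the whole interval (6.10% and 6.92%). A single bin at 26.2% and 30.1% stands apart from the rest, of which none is above 18.1% in replicate 2.

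Hot bins, with at least 2 times the coverage of the interval in each replicate, numbered 3 (3.00%, against 3.60% of the bins of the 5 long arm interiors by the same rule on their own arm). The most covered, from 25000001 to 25250000, had 26.2% in replicate 1 and 30.1% in replicate 2, or 4.29 and 4.35 times the interval. The others were 4750001 to 5000000 (16.6% and 15.3%) and 5500001 to 5750000 (14.0% and 15.4%). Next by mean coverage, the bins from 3500001 (11.2% and 18.1%) and from 5250001 (11.7% and 14.8%) missed the limit in replicate 1. The rule gave 7 bins on replicate 2 alone and 4 on replicate 1 alone.

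Cold bins, with at most 0.5 times the coverage of the interval in each replicate, numbered 9 (9.00%, against 13.2% for the 5 arms). The lowest was 12500001 to 12750000, with 0% in both replicates and 1.02% in the combined list. Next were 22000001 to 22250000 (0.744% and 0.662%), 17750001 to 18000000 (1.75% and 0%), 19250001 to 19500000 (1.41% and 1.25%) and 15500001 to 15750000 (1.17% and 1.97%). On replicate 1 alone the rule gave 22 bins and on replicate 2 alone 12. With bins shifted by 125 kb 13 of 99 (13.1%) were cold, so the share on 3R moved with the start of the bins; the other arms were not recounted with shifted bins.

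Bins picked in 1 replicate were read in the other. The 10 bins with the most coverage in replicate 1 had a mean of 14.4% in replicate 2, 2.09 times its interval, and all 10 lay above the coverage of the interval there. The 10 bins with the most coverage in replicate 2 had a mean of 12.1% in replicate 1, 1.98 times its interval, and 9 lay above it. For the 10 least covered bins of replicates 1 and 2, the means in the other replicate were 1.99% and 1.47%, and 0 of 10 lay above the interval in either case. Of the 10 most covered bins 6 were common to both replicates, and of the 10 least covered 8 were. The short last bin was among the 10 least covered of replicate 1, with 0.944%, and had 4.49% in replicate 2.

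In bins of 100 kb most hot and cold places were a single bin, 14 of 16 hot and 32 of 44 cold stretches. By the same rule 18 of 249 bins were hot, in 16 separate stretches of at most 200 kb, and they held 23.3% and 22.9% of the clustered bases of replicates 1 and 2. The most covered was 25000001 to 25200000, at 31.3% in replicate 1 and 34.6% in replicate 2. It held 18 clusters of replicate 1, from 1369 to 9018 bp wide, and 20 of replicate 2, from 1392 to 8862 bp. The next were 5700001 to 5800000 (33.4% and 25.9%), 17400001 to 17500000 (28.8% and 29.4%) and 3600001 to 3700000 (20.7% and 31.1%). Of the 16 stretches, 8 started below 7500000, in the first 5.5 Mb of the 24.9 Mb. This limit is the end of the last of these 8, so it comes from the same data, and no concentration was tested.

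Cold bins of 100 kb numbered 61 of 249 (24.5%), in 44 stretches, and held 3.72% and 4.98% of the clustered bases. The longest cold stretch ran over 400 kb from 12400001 to 12800000, at 0.664% in replicate 1 and 0.849% in replicate 2, with 2 and 1 clusters. Others of 300 kb were 13100001 to 13400000 (0.938% and 1.88%), 19200001 to 19500000 (1.18% and 1.04%) and 21900001 to 22200000 (0.62% and 0.551%). The stretch from 17200001 to 17400000 held 0 clusters in all 3 lists and bordered directly on the hot stretch from 17400001.

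**Figure D5:**
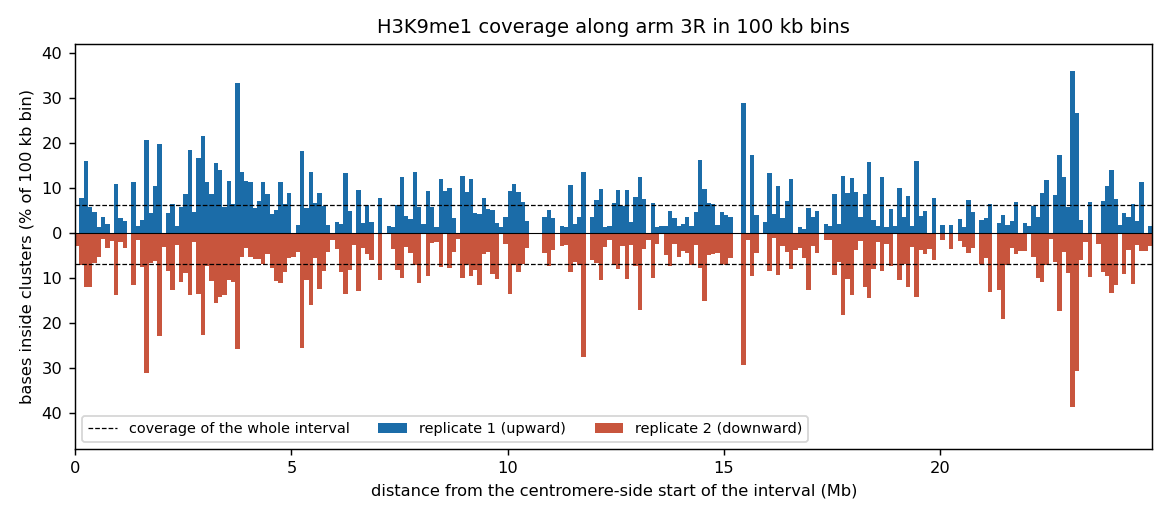
Share of each 100 kb bin of arm 3R inside clusters (percent), upward for replicate 1 and downward for replicate 2, by distance in Mb from the centromere-side start of the interval. Dashed lines mark the coverage of the interval (6.10% and 6.92%). The tallest bins, 35.9% in replicate 1 and 38.6% in replicate 2, stand at the same place near the telomere side.

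The 5 bins of 250 kb with the largest differences between the replicates are given here, and differences were not limited to them. In percentage points the largest difference was in the bin from 23250001 to 23500000, covered at 2.48% in replicate 1 by 3 clusters and at 12.8% in replicate 2 by 16. The reverse held from 5750001 to 6000000, at 16.5% in replicate 1 and 7.04% in replicate 2. Relative to the coverage of the interval in replicates 1 and 2, the first had 0.41 and 1.85 times and the second 2.70 and 1.02 times. By replicate 1 minus replicate 2 of these values the second differed more (1.68, against -1.44 for the first). By their ratio the first differed more. Another 3 bins were higher in replicate 2: 13500001 to 13750000 (6.78% and 14.9%), 3500001 to 3750000 (11.2% and 18.1%) and 7000001 to 7250000 (5.62% and 11.3%). Replicate 2, with the larger list, had the greater coverage in 64 of the 100 bins and replicate 1 in 35.

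The interval was also cut into 5 equal parts, and coverage was highest in the one nearest to the centromere. It was 8.60% in replicate 1 and 9.00% in replicate 2 there (8.80% ± 0.28, SD, n = 2). The other 4 parts had means of 6.10% ± 0.68, 5.41% ± 0.60, 6.09% ± 0.33 and 6.15% ± 0.99 in order along the arm. The difference between the centromere-side segment and each of the others was larger than the spread between replicates. Coverage did not rise steadily towards the centromere within this segment. Its 250 kb bins from 2000001 to 3500000 had means of 5.84%, 9.14%, 3.38%, 5.30%, 2.26% and 5.20% in order. The bin from 3500001 had 14.6% and that from 4750001, the most covered of the segment, 15.95%. The centromere-side segment also had the shortest median gap in the combined list, 3060 bp against 4447 to 5859 bp. Its share of combined clusters touched by both replicates was the largest, 120 of 478 (25.1%) against 16.9% to 20.2%. The share over the whole combined list was 23.8%. Combined clusters of this segment were also the widest by median, 1822 bp against 1662 to 1752 bp. The part of width and coverage in its share was not tested. The median combined score of this segment, 0.47, was close to those of the others, 0.47 to 0.50.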

How the data were processed

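The files are 3 cluster lists deposited by the authors, 1 per ChIP replicate and 1 combined. Start and end positions are used as deposited and count from 1, and the build is FlyBase release 5 per the file headers. The deposited score is the authors' value per cluster. The submitters' processing notes name Bowtie 0.12.7. For the cluster caller, its threshold and the way of combining, the sources used here give nothing. The linear value 2 to the power of the score, once scaled by a constant (0.982 in replicate 1, 0.978 in replicate 2, 0.980 in the combined list), equalled a fraction of whole numbers with a denominator up to 500 for 99.8%, 98.9% and 91.2% of all clusters (relative tolerance 1e-11), and for 0% after random rescaling by up to 1%. The score is therefore read as a log2 ratio.

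Coverage, gaps, bins and overlaps (at least 1 bp) were computed with Python 3.11.15, numpy 2.4.6, scipy 1.17.1, pandas 2.3.3 and matplotlib 3.10.9, and the functions were tested on simulated lists. Interiors of the other arms leave out the same 2 Mb and 1 Mb. Named regions follow a rule: among combined clusters covered at least 50% by each replicate the 10 highest-scoring and 10 longest, the 3 highest-scoring and 3 longest without support, the 5 highest-scoring unshared clusters of each replicate, and the 5 extreme bins and cluster-free runs. The members and these rules were chosen with earlier results of these data known. Chains, near misses and the 5 equal parts of the interval were added after the data were seen. The alternatives tried change the score or width filter, the interval, the overlap, the bins, the reference arms and the replicates used. The clusters carry no depth, so no counting interval is given for coverage.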

Additional observations from a re-analysis of the deposited data

How the results depend on the processing

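Leaving out 1 of the 2 replicates only returned the values of the other. For replicates 1 and 2 these were a coverage of 6.10% and 6.92% and a ratio to 2L, 2R and 3L of 0.804 and 0.802. Hot bins numbered 4 and 7 and cold bins 22 and 12. The shares touching the other replicate, 60.4% and 54.1%, need both lists and are the 2 directions of the main result. Filters on the median score or width use the median of the whole list, not that of 3R. Coverage was 3.02% with clusters at or above the median score, 3.97% with those of at least the median width and 7.16% on the whole arm. The ratio stayed below 1 in every alternative: 0.821 in clusters per Mb, 0.735 at or above the median score, 0.853 in the combined list, and 0.886, 0.715 and 0.817 against 2L, 2R and 3L alone. The Jaccard index was 0.285 at or above the median score and 0.371 on the whole arm. With 50% of a cluster covered 52.5% of replicate clusters were shared, and 43.2% with reciprocal overlap. Both replicates supported 15.2% of combined clusters at 50% coverage each, 44.3% at or above the median score and 44.8% from the median width. The median gap was 11986 bp and 14546 bp in replicates 1 and 2 and 16933 bp for the combined list filtered on its median score. Hot bins numbered 18 of 249 at 100 kb, 1 of 50 at 500 kb and 1 in the combined list. Cold bins numbered 61 at 100 kb, 3 at 500 kb and 13 of 99 with bins shifted by 125 kb. Fewer clusters, other bases or other bins are counted by construction in these settings. The score difference between clusters touched by both replicates and by neither, 0.123, was 0.0845 in the middle 50% of the widths, and the cause was not tested. No paired analysis was possible because no Input values were used here and no result comes from a test between groups. Sequence and annotation were not run, for lack of a genome of release 5. Depth is unknown, so the lists cannot tell weak marking from none.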

Other observations

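With the constants used here, the highest scores stood for ratios of small whole numbers. Each constant was the one, among those tried, with the largest share of whole-number ratios in a sample of the clusters. Another constant would change the ratios and denominators given below. After division by the constant of their list, the 2 highest of replicate 2, at 3528545 and 2001825, were ratios of exactly 13 and 6.5, and the 2 highest of the combined list, at 17126116 and 21153679, were 11 and 6 (relative tolerance 1e-11). The reduced denominators of the 8 highest combined scores were 1, 1, 7, 5, 11, 9, 13 and 7, against a median of 155 for the combined clusters of the interval whose score could be read in this way (1866 of 2007). In replicate 1 the 5 highest scores had denominators from 61 to 485, against a median of 88. Denominators of at most 3 occurred in 15 of the 720 clusters of replicate 1 and 16 of the 779 of replicate 2 that could be read. The whole numbers are reduced fractions and were not taken as read counts.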
